A study of Mus musculus with 35 samples.

Results

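The enzymes that oxidise and conjugate foreign compounds belong to a few large gene families, and 61 genes of 4 such families were followed here through single-cell transcript counts of the mouse small intestine and of intestinal organoids. The genes were chosen by name and by abundance: symbols beginning with Cyp and a digit (cytochrome P450), with Gst, a letter and a digit (glutathione S-transferase), with Ugt1 or Ugt2 (UDP-glucuronosyltransferase) or with Sult and a digit (sulfotransferase), with at least 20 counts over all wells used. Of 23538 genes in the tables, 159 had such a name, and 61 of these reached the count minimum: 31 of 102 Cyp genes, 19 of 21 Gst genes, 7 of 18 Ugt genes and 4 of 18 Sult genes. Another 55 had 1 count or more but stayed under the minimum, and 43 had none. Just inside the minimum lay Cyp4f40 with 21 counts and Cyp2c70 with 25, and just outside it Cyp2d11 with 17 and Cyp3a44 with 16.

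All mice were C57BL/6, and the labelled tissue was small intestinal crypts. The age of the animals is not given in the labels. Organoids are epithelial structures grown from crypts in Matrigel with EGF, RspoI, Noggin, N-acetylcysteine and B27 supplement, conditions shared by the 3 organoid groups. They comprised unsorted cells of wild-type organoids (whole organoid, 2 replicates), Reg4-positive cells of Reg4-dsRed-knock-in organoids (Reg4-positive organoid, 2 replicates) and Lgr5-positive cells of Lgr5-GFP-DTR organoids (Lgr5-positive organoid, 1 replicate). Cells taken straight from the intestine were either Lgr5-positive cells of Lgr5-EGFP mice (Lgr5-EGFP ex vivo, 2 plates) or YFP-positive progeny from Lgr5-YFP mice, taken 5 days after labelling (YFP ex vivo, 5 plates). Lgr5 marks crypt base stem cells and drives the labelling, so the YFP cells are those labelled stem cells that remain and their descendants of that interval. The groups differ in genotype as well as in sort. Organoids were dissociated with TrypleE enzyme mix and primary crypts with EDTA and trypsin. The labels do not say that replicates came from separate animals or cultures, so p-values measure only the spread between these replicates.

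Of 1680 wells, 1209 held at least 1500 gene counts and were kept, and their counts were summed per replicate to between 287001 (YFP replicate 4) and 2860636 (whole organoid replicate 1). No kept well was identical to another. Levels are CPM, counts scaled to the same TMM-corrected library total. CEL-seq counts transcripts at their 3′ end, 1 tag per molecule, so these levels do not grow with transcript length. In replicate 2 of the Reg4-positive organoids, 3 wells of more than 100000 counts held 49.3% of the kept counts. The Lgr5-positive organoid table was matched to its label by its name alone. Enterocyte markers (14 genes) differed widely between the groups. They summed to 37642 and 17758 CPM in whole organoids, to between 1541 and 7404 in the YFP plates, to 2799 and 3178 in Reg4-positive organoids, to 1018 in Lgr5-positive organoids, and to 428 and 423 in the Lgr5-EGFP plates. Stem cell markers (10 genes) summed to 2438 CPM in Lgr5-positive organoids and to 639 and 841 CPM in whole organoids, but to 1899 and 1595 CPM in the Lgr5-EGFP plates and to between 1361 and 1985 in the YFP plates, so that these 2 groups overlapped. Lct stood at 0 in Reg4-positive replicate 1, and Alpi, Fabp1 and Lct stood at 0 in Lgr5-positive organoids.

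Cytochromes P450 are heme enzymes of the endoplasmic reticulum and mitochondria that insert oxygen into drugs, fatty acids, sterols and bile acids, drawing electrons from the reductase Por in the endoplasmic reticulum. Glutathione S-transferases join glutathione to reactive molecules, UDP-glucuronosyltransferases attach glucuronic acid and sulfotransferases attach sulfate, and the products leave the cell through export pumps. In the small intestine the villus enterocyte is the main site of this chemistry, and its genes are under the control of sensors such as Nr1i2 (PXR), Nr1i3 (CAR), Ahr and Nfe2l2 together with the hepatocyte nuclear factors.

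The regions upstream of 5 members that recur in the comparisons are shown, to set the Cyp2b, Cyp2c and alpha-class Gst genes side by side. They are RefSeq promoters on GRCm38.p6, up to 250 bases before the annotated start and trimmed to bases outside exons. Cyp2b10 lies at chr7:25897408-25897619, plus strand. Cyp2c29 lies at chr19:39286835-39287073, plus strand, Cyp2c65 at chr19:39060756-39061005, plus strand, and Cyp2c68 at chr19:39741102-39741351, minus strand. Gsta1 lies at chr9:78230419-78230655, plus strand. Capitals mark the matches, on either strand, to the motifs searched. The xenobiotic response element core is spelled GCGTG and is bound by the Ahr complex. The HNF4 site core, taken from sites of a liver and gut nuclear receptor, is spelled CAAAGTCCA. The HNF1 site core, of another factor of the gut epithelium, is spelled GTTAAT. The TATA box, which positions the start of transcription, is spelled TATAAA. The antioxidant response element core is spelled TGACNNNGC and had no match in these 5 stretches. No matches overlap each other.
Cyp2b10: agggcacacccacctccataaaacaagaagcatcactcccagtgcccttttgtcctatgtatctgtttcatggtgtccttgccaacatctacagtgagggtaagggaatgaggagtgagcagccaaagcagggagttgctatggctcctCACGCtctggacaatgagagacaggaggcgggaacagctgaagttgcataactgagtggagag
Cyp2c29: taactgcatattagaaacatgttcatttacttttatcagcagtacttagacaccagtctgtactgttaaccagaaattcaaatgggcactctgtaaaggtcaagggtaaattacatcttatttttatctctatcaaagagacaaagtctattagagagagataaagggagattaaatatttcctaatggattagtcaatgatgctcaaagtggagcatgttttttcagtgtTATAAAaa
Cyp2c65: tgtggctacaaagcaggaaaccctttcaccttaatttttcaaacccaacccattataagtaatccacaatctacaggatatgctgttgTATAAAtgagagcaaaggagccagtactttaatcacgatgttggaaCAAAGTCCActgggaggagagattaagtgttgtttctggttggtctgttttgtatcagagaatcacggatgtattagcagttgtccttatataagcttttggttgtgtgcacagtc
Cyp2c68: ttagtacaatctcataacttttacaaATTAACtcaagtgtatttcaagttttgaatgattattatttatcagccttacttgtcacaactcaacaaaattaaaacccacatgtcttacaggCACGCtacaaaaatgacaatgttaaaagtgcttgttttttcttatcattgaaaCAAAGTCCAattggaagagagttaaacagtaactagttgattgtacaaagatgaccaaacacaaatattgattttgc
Gsta1: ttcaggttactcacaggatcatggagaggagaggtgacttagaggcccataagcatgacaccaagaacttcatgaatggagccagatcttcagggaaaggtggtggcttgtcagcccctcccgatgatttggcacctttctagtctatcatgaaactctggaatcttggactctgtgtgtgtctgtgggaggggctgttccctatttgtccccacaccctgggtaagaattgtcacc

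Positions are counted from the RefSeq start, which for Cyp2b10, Cyp2c29 and Gsta1 lies beyond the end of the trimmed stretch. For Cyp2c29 the RefSeq start also lies inside the longer span that GENCODE M21 gives the gene. Cyp2b10 held the xenobiotic response element core 101 bases before its RefSeq start. The Cyp2c29 stretch held a TATA box close to its end, while the TATAAA match of Cyp2c65 lay 162 bases before the RefSeq start. Cyp2c65 and Cyp2c68 both held the HNF4 site core, 116 and 77 bases before the RefSeq start, and Gsta1 held none of the 5 motifs. Over the 54 members with a RefSeq promoter of 250 bases, searched on both strands, the HNF4 site core was found in 4 (7.41%): Cyp2c65, Cyp2c68, Cyp2c70 and Cyp3a11. Its share among 27025 genes was 0.45%. Cyp2c65, Cyp2c68 and Cyp2c70 are related genes of the same subfamily on chromosome 19, so their matches are not independent. The TATA box was in 13 members (24.07%, against 14.33% of all genes) and the HNF1 site core in 8 (14.81%, against 7.49%). The xenobiotic response element core was in 14 members (25.93%, against 30.85%) and the antioxidant response element core in 4 (7.41%, against 11.52%). A match is a description of letters in this window, without a measurement of binding.

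The families differed in abundance between the groups. Summed over the 61 members, levels were 17977 ± 7639 CPM (SD, n = 2) in whole organoids, 3924 ± 1487 (SD, n = 2) in Reg4-positive organoids, 2251 in the Lgr5-positive organoid replicate, 3932 ± 908 (SD, n = 5) in YFP plates and 1427 ± 50.9 (SD, n = 2) in Lgr5-EGFP plates. Glutathione S-transferases made up the larger part of this sum in each group: 52.1% in whole organoids, 60.45% in Reg4-positive organoids, 64.09% in Lgr5-positive organoids, 56.84% in YFP plates and 64.91% in Lgr5-EGFP plates. Cytochromes P450 took 39.67% of it in whole organoids and 21.11% in Lgr5-EGFP plates. Sulfotransferases took 2.83% in whole organoids and 6.61% in YFP plates. These sums are descriptions and were not tested.

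**Figure D1:**
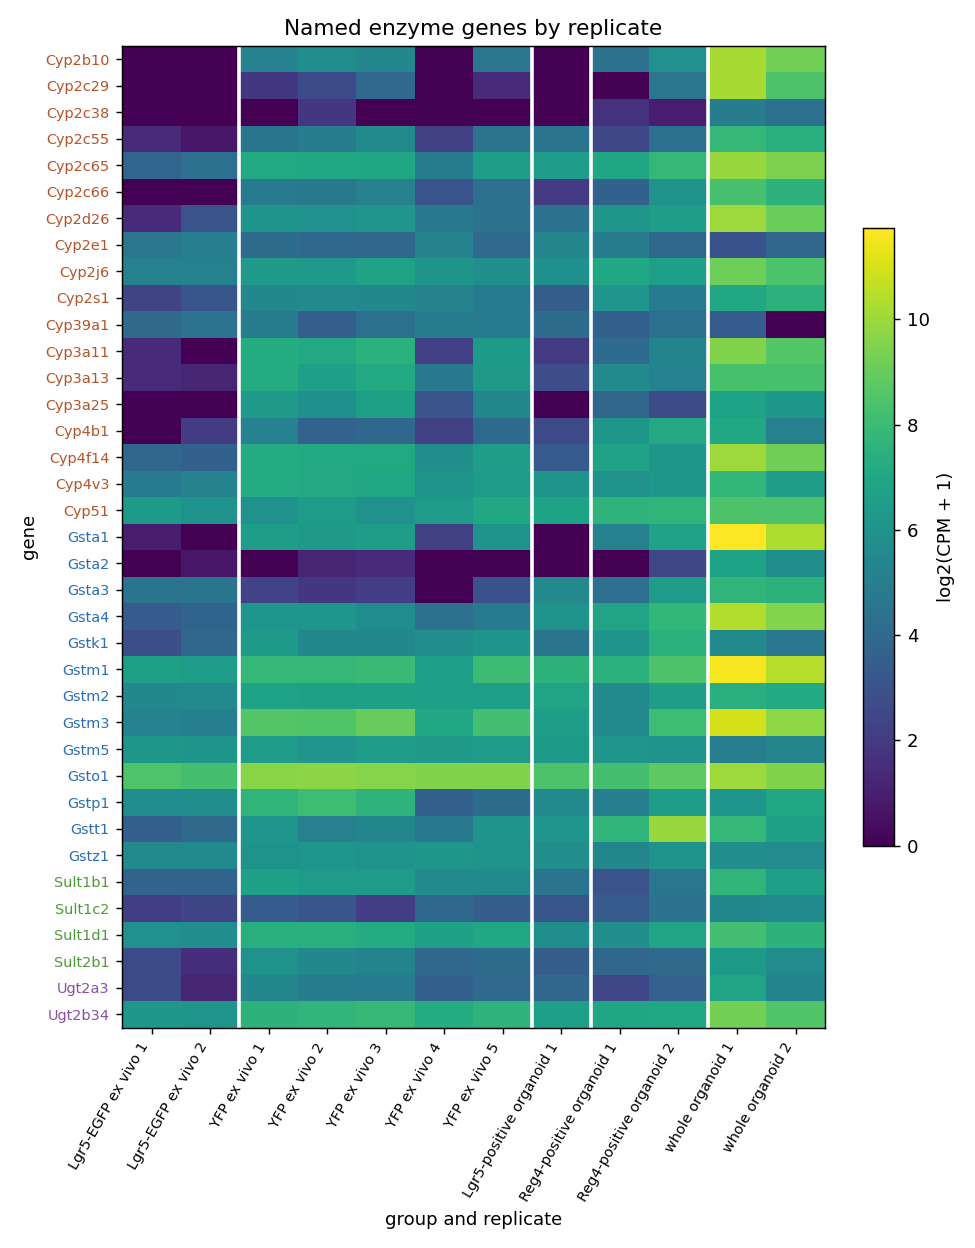
Heat map of the level of 37 named members (rows, gene labels coloured by family) in the 12 replicates (columns), as log2(CPM + 1). The 2 whole organoid replicates are the brightest columns (highest levels) for most rows of the Cyp2c, Cyp3a, Gsta and Gstm subfamilies, and the Lgr5-EGFP and Lgr5-positive organoid columns are darkest, at 0, for Cyp2b10, Cyp2c29 and Cyp3a25.

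Culture was first compared with intestine for cells not selected as stem cells, that is, unsorted whole organoid cells against YFP progeny. Whole organoids carried more transcript of most members. Of 54 members tested, 37 were higher and 2 lower in edgeR's quasi-likelihood test (false discovery rate 0.05), while 13.4% of the 10632 genes tested were called higher and 9.45% lower. The median log2 fold change was 1.92 over the members and 0.04 over all genes. In 36 members each organoid replicate lay above each YFP plate, as in 20.1% of all genes, and in 3 each lay below, as in 15.4%. Enterocyte markers were also higher in whole organoids, as given above, and stem cell markers were lower. Paneth markers (10 genes) summed to 398 and 5647 CPM in whole organoids, where Mptx1 and Mptx2 were at 0 in replicate 1, and to between 11528 and 50164 CPM in YFP plates. The part of these markers in the differences was not tested. In summed wells, fewer cells of a type and less RNA per cell cannot be told apart.

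Among the cytochromes P450, 18 of 26 tested were higher in whole organoids and 1 was lower. The Cyp2c subfamily, enzymes of drug and arachidonic acid oxidation that lie side by side on chromosome 19, had 7 of 8 members higher. Cyp2c29 (chr19:39269405-39330713) had 1181 and 346 CPM in the whole organoid replicates and 2.79, 5.31, 15.2, 0 and 1.69 CPM in the 5 YFP plates. The groups lay far apart, and the log2 difference of 7.10 ± 0.62 (SE; edgeR adjusted p = 6.2e-06) was the highest among members with counts in both groups. Cyp2c65, the Cyp2c member with the highest mean level, had 986 and 689 CPM in whole organoids and 139, 129.98, 119.6, 29.6 and 96.1 in YFP plates, without overlap (log2 difference 2.97 ± 0.33, edgeR adjusted p = 2.8e-05). Cyp2c66, Cyp2c55, Cyp2c68 and Cyp2c38 were also higher. Cyp2c44, at 0 counts in YFP plates, was at least 11.3-fold higher in whole organoids, taking a count of 0 as up to 3 counts over the group. Cyp2c70 did not pass (log2 difference 2.34 ± 2.31, edgeR adjusted p = 0.51).

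Cyp2b10 (chr7:25897620-25926624), a drug-oxidising enzyme and standard target gene of CAR, had 1166 and 599 CPM in whole organoids and 36.2, 57.0, 42.1, 0 and 23.6 in YFP plates. Both organoid values were above every plate, and plate 4 had none (log2 difference 4.65 ± 0.44, edgeR adjusted p = 1.3e-05). Cyp2d26 followed the same order, with 1038 and 540.0 CPM against 66.9, 61.0, 69.1, 25.9 and 20.2 CPM (log2 difference 3.96 ± 0.35, edgeR adjusted p = 4.4e-06). Cyp4f14, which hydroxylates leukotrienes and other fatty acids at their far end, had 1053 and 583 CPM against 146, 141, 139.8, 55.6 and 96.1 CPM (log2 difference 2.78 ± 0.28, edgeR adjusted p = 1.2e-05). Cyp2j6, an arachidonic acid epoxygenase, rose by 2.54 ± 0.23 on the log2 scale and Cyp2s1 by 2.00 ± 0.27.

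The 3 Cyp3a genes, the major drug-oxidising subfamily of the gut and target genes of PXR, had 2 members higher. Cyp3a11 (chr5:145854426-145879964) had 733 and 395 CPM in whole organoids and 152, 141, 177, 3.70 and 82.6 in YFP plates. Organoids were higher throughout, but plate 4 lay far below the other plates (log2 difference 2.27 ± 0.48, edgeR adjusted p = 0.004). Cyp3a13 rose by 1.62 ± 0.31 (edgeR adjusted p = 0.0022). Cyp3a25, at 112 and 75.2 CPM in organoids and 80.8, 58.4, 101, 7.41 and 40.5 in YFP plates, overlapped between the groups and did not pass (log2 difference 0.61 ± 0.41, edgeR adjusted p = 0.31). The Cyp3a11 call was lost without whole organoid replicate 1 and in DESeq2.

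Cytochromes P450 of sterol metabolism went different ways. Cyp51, the demethylase of cholesterol synthesis, had 349 and 354 CPM in whole organoids against 59.9, 87.5, 60.6, 85.2 and 128 CPM in YFP plates and was higher in both replicates (log2 difference 2.06 ± 0.23, edgeR adjusted p = 3.0e-05). Cyp39a1, an oxysterol hydroxylase of bile acid synthesis, was the only P450 called lower: it had 9.84 and 0 CPM against 30.7, 10.6, 18.5, 29.6 and 27.0 CPM (log2 difference -1.97 ± 0.64, edgeR adjusted p = 0.039). Its counts were few, and the call was lost when any 1 of YFP plates 1, 3, 4 and 5, or whole organoid replicate 2, was left out. Cyp27a1, a mitochondrial sterol hydroxylase, did not pass (5.51 and 1.96 CPM against 19.5, 5.31, 5.05, 14.8 and 16.9 CPM; edgeR adjusted p = 0.094). Neither did Cyp2e1, the ethanol-oxidising enzyme, at 6.69 and 13.7 CPM against 16.7, 14.6, 13.5, 37.0 and 15.2 CPM.

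Of the 19 glutathione S-transferases, 11 were higher in whole organoids and 1 was lower. All 4 alpha-class members were higher. Gsta1 (chr9:78230656-78242684) had 3417 and 1268 CPM in whole organoids and 96.1, 79.6, 96.0, 3.70 and 64.0 in YFP plates (log2 difference 5.03 ± 0.51, edgeR adjusted p = 1.3e-05). It was the most abundant member in whole organoid replicate 1. Gsta4, which conjugates products of lipid peroxidation, had 1356 and 749.8 CPM against 71.1, 70.3, 50.5, 18.5 and 28.7 CPM (log2 difference 4.38 ± 0.35, edgeR adjusted p = 1.4e-06). Gsta3 had 203 and 186 CPM against 4.18, 2.65, 3.37, 0 and 6.74 CPM, the 2 organoid replicates lying close together and far above the plates (log2 difference 5.66 ± 0.44, edgeR adjusted p = 1.1e-06). Gsta2 rose by 6.73 ± 0.58, although its 3′ end shares sequence with Gsta1 and the authors' counting could have split reads between them.

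The mu-class genes, a row of neighbours on chromosome 3, split. Gstm1 (chr3:108012255-108017973) had 3102 and 1396 CPM in whole organoids and 227, 222, 258, 96.3 and 263 in YFP plates (log2 difference 3.38 ± 0.33, edgeR adjusted p = 1.1e-05). Gstm3 had 2048 and 852 CPM against 387, 370.1, 514, 129.6 and 297 CPM (log2 difference 2.08 ± 0.47, edgeR adjusted p = 0.0059). Both were higher in each organoid replicate than in any plate. Gstm2, Gstm4, Gstm6 and Gstm7 were also higher. The Gstm2 call was lost in DESeq2 and whenever any single replicate of either group was left out. The Gstm3 and Gstm4 calls were lost without whole organoid replicate 1. Gstm5 was lower: it had 31.9 and 39.9 CPM in whole organoids and 87.8, 67.6, 87.6, 77.8 and 89.3 in the plates, without overlap (log2 difference -1.20 ± 0.19, edgeR adjusted p = 4.8e-04).

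Of the other Gst classes, Gstt1 alone passed. This theta-class gene rose by 1.78 ± 0.46 (edgeR adjusted p = 0.013), a call lost without whole organoid replicate 1. Gsto1, the omega-class thioltransferase, was abundant in both settings: 1031 and 739 CPM in whole organoids and 805, 826, 789.9, 737 and 721 in YFP plates (log2 difference 0.19 ± 0.19, edgeR adjusted p = 0.52). Gstz1, an enzyme of tyrosine breakdown, had 55.5 and 50.3 CPM against 62.7, 70.3, 64.0, 74.1 and 64.0 CPM, and Gstk1, of mitochondria and peroxisomes, had 46.4 and 24.8 CPM against 83.6, 43.8, 43.8, 55.6 and 65.7 CPM; neither passed. Gstp1 had 72.0 and 127 CPM in whole organoids and 205, 271, 195, 11.1 and 16.9 in the plates. YFP plates 4 and 5 lay far below plates 1 to 3, so the spread of this gene was wide (edgeR adjusted p = 0.59). Gstp1 was counted in 62.5%, 74.4% and 63.5% of the wells of plates 1 to 3 and in 8.57% and 14.7% of those of plates 4 and 5. Gstp1 and Gstp2 share 3′ sequence over 78.0% and 48.4% of their windows and are best read as 1 signal.

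All 5 UDP-glucuronosyltransferases tested and 3 of 4 sulfotransferases were higher in whole organoids. Ugt2b34 had the highest mean level of its family, 615 and 372 CPM in organoids against 189, 214, 232, 152 and 196 CPM in plates (log2 difference 1.32 ± 0.20, edgeR adjusted p = 3.3e-04). Ugt2b5 had 291 and 126.2 CPM against 15.3, 17.2, 13.5, 0 and 16.9 CPM, a wider gap (log2 difference 3.89 ± 0.44, edgeR adjusted p = 3.5e-05). Ugt2b36, Ugt2a3 and Ugt2b35 rose by 3.15 ± 0.32, 1.54 ± 0.42 and 0.88 ± 0.19. The Ugt2a3 and Ugt2b35 calls were lost without whole organoid replicate 1. With wells thinned to 1500 counts these calls and that of Ugt2b34 were lost. The 2 Ugt1a members were not tested. Sult1c2 had 42.5 and 47.7 CPM in organoids and 9.75, 7.96, 3.37, 14.8 and 10.1 in plates (log2 difference 2.37 ± 0.34, edgeR adjusted p = 2.4e-04). Sult1b1, which acts on thyroid hormones, overlapped between the groups (206 and 96.8 CPM against 103, 87.5, 85.9, 48.2 and 47.2 CPM; log2 difference 0.99 ± 0.32, edgeR adjusted p = 0.036). Its call, and that of Sult1d1, a sulfotransferase of catecholamines, was lost in several alternatives, among them leaving out whole organoid replicate 1. Sult2b1, a sterol sulfotransferase, did not pass (edgeR adjusted p = 0.11).

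**Figure D2:**
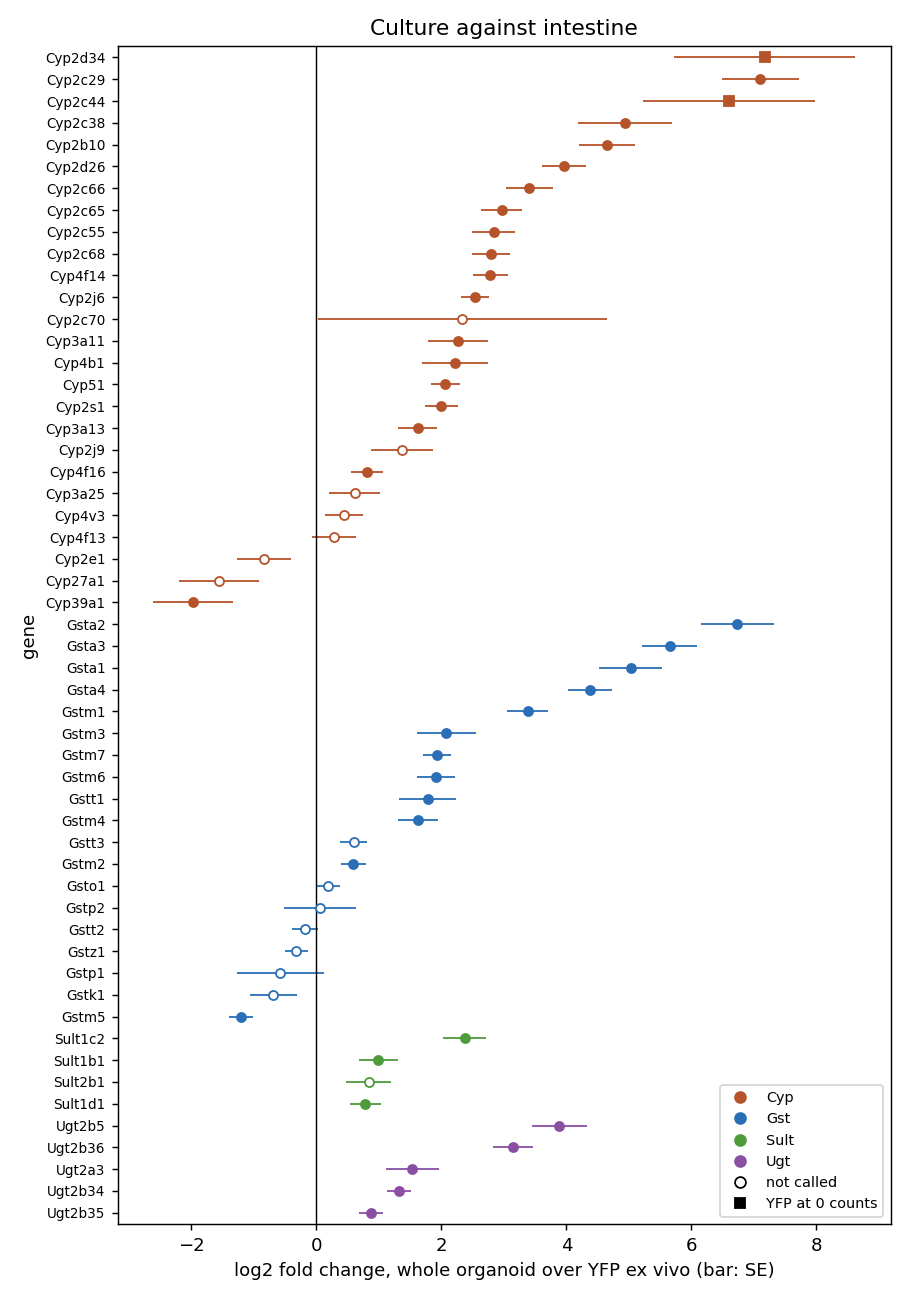
Log2 fold change (x axis) of the 54 tested members (y axis, coloured by family) in whole organoids over YFP ex vivo, with bars of 1 SE; open symbols were not called, and squares mark the 2 genes without counts in YFP plates, whose fitted value depends on a prior count. Most points lie right of 0, with Cyp2c29 at 7.10 and Gsta2 at 6.73, and Gstm5 and Cyp39a1 are the filled points left of 0.

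The same question was asked of stem cells, with Lgr5-positive organoid cells against Lgr5-EGFP cells of the intestine. Here 1 replicate stood against 2 and was assumed to vary like the other groups. Of 54 members tested, 2 were called higher, beside 0.762% of 10632 genes, and none lower, beside 0.677%. The filter on low counts was run over all 5 groups, so the 54 include members without a count in either stem cell group. Cyp2b10, Cyp2c29 and Cyp3a25 were such members. They could not be called, although they enter the number tested and the median. At an unadjusted p under 0.05 edgeR counted 10 higher and 0 lower, and the share of all genes at that threshold was not computed. DESeq2 with adjustment called 4 members higher and 0 lower, and of all genes 117 higher and 68 lower. The median log2 fold change was 0.745 over the members, against -0.015 over all genes. Gstm2 had 114 CPM in the Lgr5-positive organoids and 44.2 and 47.8 in the Lgr5-EGFP plates (log2 difference 1.30 ± 0.30, edgeR adjusted p = 0.046). Cyp2c55 had 21.7 CPM against 1.73 and 0.65 CPM (log2 difference 4.14 ± 0.96, edgeR adjusted p = 0.0496). Both calls were lost without TMM scaling, with wells thinned to 1500 counts and when either Lgr5-EGFP plate was left out.

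Many of the genes with the widest gaps above were at or near 0 in both stem cell groups. Cyp2b10, Cyp2c29 and Cyp3a25 had no count in Lgr5-positive organoids or in Lgr5-EGFP plates. Gsta4 had 64.2 CPM in Lgr5-positive organoids against 9.54 and 12.9 CPM (log2 difference 2.48 ± 0.61, edgeR adjusted p = 0.066), and Cyp2c65 had 87.9 CPM against 13.0 and 18.7 CPM (edgeR adjusted p = 0.053). Both missed the threshold. Gsto1 was at 351 CPM and 365 and 307 CPM (log2 difference 0.06 ± 0.29).

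The difference between these 2 culture effects was tested as an interaction, for which 4.39% of all genes were called in either direction. It passed for 4 of the 54 members tested. For Cyp2b10, Cyp2c29, Cyp2c38, Cyp2c44, Cyp2c70, Cyp2d34 and Cyp3a25 it could not be estimated, with SE between 1384 and 21219. These members could not pass, and their lack of a call does not show equal culture effects. For Gsta3 the culture effect was larger in unsorted than in Lgr5-sorted cells by 4.66 ± 0.78 on the log2 scale (edgeR adjusted p = 0.0071), with 44.5 CPM in Lgr5-positive organoids and 21.7 and 22.6 in Lgr5-EGFP plates. For Cyp4f14 it was larger by 3.29 ± 0.75 (edgeR adjusted p = 0.028) and for Cyp2j6 by 1.78 ± 0.47 (edgeR adjusted p = 0.046). For Gstm5 it was -1.44 ± 0.31 (edgeR adjusted p = 0.022): the gene had 83.0 CPM in Lgr5-positive organoids and 73.7 and 67.1 in Lgr5-EGFP plates, against the lower organoid values in unsorted cells. Enterocyte marker sums differed between whole organoids and YFP plates and were low in both stem cell groups, and this cannot be told apart from culture in the interaction.

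Within the intestine, YFP progeny were compared with Lgr5-EGFP stem cells. Progeny had more transcript of most members: of 45 tested, 34 were higher and 1 lower in edgeR, beside 14.7% and 11.0% of 9065 genes. The median log2 fold change was 1.68 over the members and -0.004 over all genes. The YFP plates also enter the first comparison as controls, so the 2 sets of values are not independent. By family, 15 of 20 Cyp, 13 of 18 Gst, 3 of 4 Ugt and 3 of 3 Sult genes were higher. Enterocyte markers were above the stem cell plates in each YFP plate, and their part was not tested.

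The 3 Cyp3a genes were among the widest gaps. Cyp3a13 had 1.73 and 1.29 CPM in the Lgr5-EGFP plates against the 152, 98.2, 139.8, 25.9 and 80.9 CPM of the YFP plates (log2 difference 6.02 ± 0.63, edgeR adjusted p = 3.7e-05). Cyp3a11 was at 1.73 and 0 CPM in stem cells (log2 difference 7.08 ± 0.97, edgeR adjusted p = 1.7e-04). Cyp3a25 had no count in stem cells and was at least 43.0-fold higher in progeny. Cyp2b10 and Cyp2c66, also at 0 in stem cells, were at least 24.7-fold and 16.5-fold higher, although YFP plate 4 had no Cyp2b10 count either.

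Members of the other subfamilies rose in progeny from different levels in stem cells. Cyp4f14 had 13.9 and 11.6 CPM there (log2 difference 3.25 ± 0.32, edgeR adjusted p = 2.0e-05) and Gstm3 35.6 and 32.9 CPM (log2 difference 3.34 ± 0.40, edgeR adjusted p = 7.2e-05). Gsta1 was close to absent, at 0.87 and 0 CPM (log2 difference 7.15 ± 0.88, edgeR adjusted p = 8.7e-05). Gsto1 was the most abundant member in stem cells, with 365 and 307 CPM, and rose by 1.22 ± 0.15 (edgeR adjusted p = 7.5e-05). Sult2b1, Sult1b1 and Sult1d1 rose by 3.44 ± 0.58, 2.66 ± 0.32 and 1.36 ± 0.18, and Ugt2b34 by 1.46 ± 0.18.

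Gsta3 was the only member called lower in progeny. It had 21.7 and 22.6 CPM in the Lgr5-EGFP plates and 4.18, 2.65, 3.37, 0 and 6.74 CPM in the YFP plates, without overlap (log2 difference -2.52 ± 0.43, edgeR adjusted p = 8.6e-04). The other alpha-class members tested, Gsta1 and Gsta4, went up. Gstm5, Gstt2, Cyp51, Cyp2e1, Cyp27a1 and Cyp39a1 did not pass. Cyp51 had 83.3 and 62.6 CPM in stem cells, within the range of the YFP plates. Without TMM scaling 643 of all genes were called higher and 3314 lower, the median of all genes moved to -0.44, and 32 members were higher and 3 lower.

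Within culture, both sorted groups carried less of the families than unsorted organoid cells. In Reg4-positive organoids, a sort for secretory cells, 28 of 55 members tested were lower and none higher in edgeR, beside 4.07% and 2.39% of 10522 genes. In Lgr5-positive organoids 24 of 55 were lower and none higher, beside 2.97% and 0.656%. Other edgeR fits did call members higher: with all 5 groups in the fit 3 were higher and 35 lower in Reg4-positive organoids, and 3 higher and 36 lower in Lgr5-positive organoids. Of all genes, 842 and 654 were higher in these fits of all 5 groups. At an unadjusted p under 0.05 edgeR counted 4 and 3 members higher, and the share of all genes at that threshold was not computed. DESeq2 with adjustment called 0 members higher in either comparison, and 227 and 52 of all genes. Median log2 fold changes were -1.99 and -2.74 over the members, and 0.01 and -0.03 over all genes. With the 8 members that had no count in 1 of the groups set at their bounds, the second median was -2.50. Both comparisons share the whole organoid replicates. Enterocyte markers were also lower in both sorts, and their part was not tested.

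Cyp2b10 and several Cyp2c and Gsta genes were far lower in the sorted cells than in whole organoids, and some had no count in Lgr5-positive organoids. Cyp2b10 had 20.7 and 59.6 CPM in Reg4-positive replicates (log2 difference from whole organoids -4.36 ± 0.57, edgeR adjusted p = 0.012). It had no count in Lgr5-positive organoids, at least 265-fold lower than in whole organoids. Gsta1 had 34.6 and 109 CPM in Reg4-positive replicates (log2 difference -4.97 ± 0.71, edgeR adjusted p = 0.013) and none in Lgr5-positive organoids, at least 726-fold lower. Cyp2c29 stood at 0 and 23.3 CPM in Reg4-positive replicates and was at least 241-fold lower in Lgr5-positive organoids. Gsta2, Cyp3a25 and Cyp2c38, also without a count there, were at least 25.4-fold, 27.3-fold and 7.11-fold lower.

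All 3 Cyp3a genes fell in both sorts, as did 1 of 3 Cyp4f genes tested, Cyp4f14. Cyp3a11 had 16.1 and 38.2 CPM in Reg4-positive replicates and 2.96 in Lgr5-positive organoids (log2 differences -4.27 ± 0.51 and -7.53 ± 0.89, edgeR adjusted p = 0.011 and 0.011). Cyp3a13 fell in both as well, with 46.1 and 35.4 and 5.93 CPM. Cyp4f14 had 108 and 73.6 and 8.89 CPM (log2 differences -3.18 ± 0.44 and -6.51 ± 0.73, edgeR adjusted p = 0.012 and 0.011). Gstm1 stood at 178 and 351 and 191.7 CPM and passed in both. When Reg4-positive replicate 1 was left out, 8 of the 28 calls were kept, and 15 were kept without the wells of more than 100000 counts.

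Gstt1, Gstk1 and Cyp4b1 did not fall in Reg4-positive organoids, though in Lgr5-positive organoids they lay below both whole organoid replicates. Gsto1 was lower in both sorts, at 311 and 450 CPM in Reg4-positive replicates and 351 CPM in Lgr5-positive organoids. It had 1031 and 739 CPM in whole organoids and did not pass in either comparison. Gstt1 had 209.8 and 959.6 CPM in the Reg4-positive replicates, 68.2 in Lgr5-positive and 225 and 105 in whole organoids. The replicate with 960 CPM lay far above the rest, and the difference from whole organoids did not pass (1.84 ± 0.67 on the log2 scale, edgeR adjusted p = 0.16). Gstk1 had 66.9 and 179.8 CPM in Reg4-positive replicates, both above the 46.4 and 24.8 CPM of whole organoids, and did not pass either (log2 difference 1.82 ± 0.50, edgeR adjusted p = 0.074). Cyp4b1, a fatty acid and furan oxidase, had 73.8 and 134 CPM against 129 and 33.3 CPM (edgeR adjusted p = 0.76). Enteroendocrine markers (13 genes) summed to 9176 and 28469.6 CPM in the same 2 Reg4-positive replicates, and to 4292 and 144 CPM in whole organoids, where 6 of the 13, Chga among them, were at 0 in replicate 2. Paneth markers (10 genes) summed to 154910 and 47177 CPM in the Reg4-positive replicates. The part of these markers in the Gstt1, Gstk1 and Cyp4b1 levels was not tested.

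How the members spread over cell classes was described in clusters of wells built without the members, separately for organoid and ex vivo wells. Classes are named from fixed markers, and names rebuilt in this way can differ from those of the study. In organoids 171 wells were enterocyte-like, 79 stem-like, 32 Paneth-like, 72 enteroendocrine-like, 4 tuft-like and 357 unnamed. In ex vivo wells 41 were enterocyte-like, 29 Paneth-like, 36 goblet-like, 18 enteroendocrine-like, 8 tuft-like and 362 unnamed. All 41 ex vivo enterocyte-like wells came from YFP plates. Of the 171 in organoids, 142 came from whole organoid replicate 1 (of 276 kept wells) and 25 from replicate 2 (of 209). Another 34 wells, all from whole organoid replicate 2, formed cluster 12. It had 5 enterocyte markers raised but none among its leading genes, and so was left unnamed. The enterocyte-like wells of the 2 whole organoid replicates were also held partly by different clusters, replicate 1 mainly by clusters 6 and 10 and replicate 2 by clusters 6 and 8. Of the 79 stem-like wells, 68 came from the Lgr5-positive organoid replicate and 2 from whole organoid replicate 2. Wells are not replicates, so no test was run on classes. Class levels are CPM of the summed wells, without TMM scaling.

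Only the named classes were ranked, without the small tuft-like ones. Among these, enterocyte-like wells held the highest level of 49 of 61 members in organoids. Ex vivo they did so for 42 of the 55 members with a count in the ranked classes. The 357 unnamed organoid and 362 unnamed ex vivo wells were thus left out. They include 68 of 75 and 68 of 84 kept wells of the Lgr5-EGFP plates, and no ex vivo class was stem-like. The share of all genes that peak in enterocyte-like wells was not computed. Gsta1 had 4728 CPM in organoid enterocyte-like wells, against 36.7 CPM in enteroendocrine-like, 12.7 in stem-like and 11.9 in Paneth-like wells. It was counted in all 171 enterocyte-like wells and in 2.53% of stem-like wells. With wells thinned to 1500 counts these shares were 95.9% and 0%. Gstm1 was spread more widely: 3888 CPM in enterocyte-like wells, 304 in stem-like, 196 in enteroendocrine-like and 111 in Paneth-like wells, with a count in 99.4%, 89.9%, 38.9% and 43.8% of wells. Cyp3a11 was counted in 93.0% of enterocyte-like and 7.59% of stem-like organoid wells (75.4% and 0% after thinning). In ex vivo wells it was counted in 56.1% of enterocyte-like and 36.1% of goblet-like wells, at 612 and 43.5 CPM. Median counts per well were 7850 in organoid enterocyte-like wells and 11823 in stem-like wells, and shares of a few percent are at the level that free RNA can give.

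**Figure D3:**
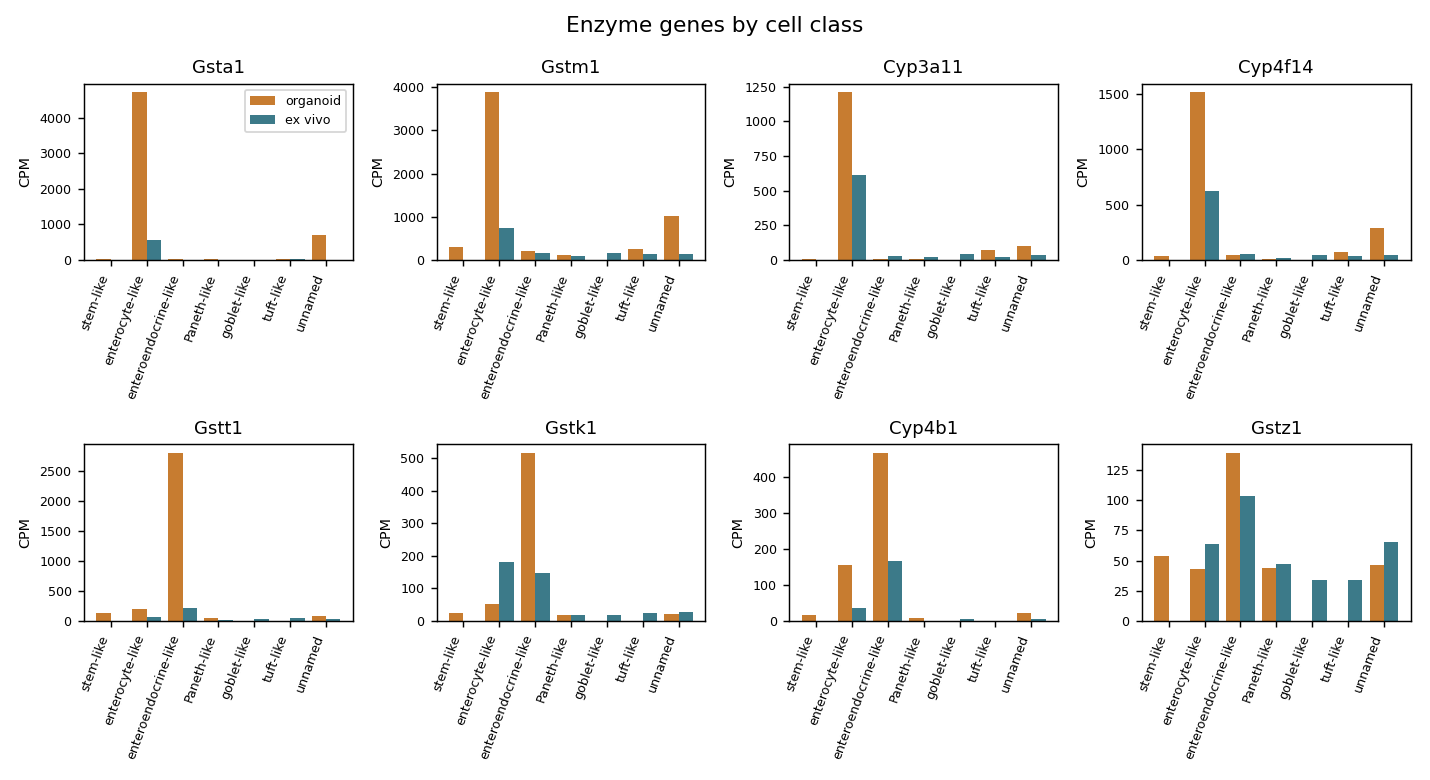
Level (bars, y axis, CPM of the summed counts of all wells of a class, from 0) of 8 members in each cell class (x axis), for organoid and ex vivo wells; there was no goblet-like class in organoids and no stem-like class ex vivo, and the bars carry no error because wells are not replicates. Gsta1, Gstm1, Cyp3a11 and Cyp4f14 peak in enterocyte-like wells, while Gstt1, Gstk1 and Cyp4b1 peak in organoid enteroendocrine-like wells, at 2814, 517 and 468 CPM.

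Enterocyte-like wells were then set side by side between culture and intestine. The members summed to 30879.6 CPM in organoid enterocyte-like wells and 12193.8 CPM in ex vivo ones, a ratio of 2.53, while the 14 enterocyte markers summed to 53815 and 27567 CPM, a ratio of 1.95. Of 47 members with more than 3 counts in both, 32 were higher in organoids and 15 lower, with a median ratio of 1.69, and 20 exceeded the ratio of the markers. Cyp2c29 had 1695 CPM in organoid and 36.4 in ex vivo enterocyte-like wells, a ratio of 46.6. Gsta1 (4728 and 564 CPM), Cyp2b10 (1544 and 200.1 CPM), Gsta4 (1624 and 294 CPM), Cyp2d26 (1433 and 267 CPM) and Gstm1 (3888 and 740 CPM) had ratios between 5.26 and 8.39.

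Other abundant members were near equal or lower in organoid enterocyte-like wells. Gstm3 had 2428 CPM in organoid and 1910 CPM in ex vivo enterocyte-like wells, and Cyp3a13 573 and 485 CPM. Sult1b1 had 288 CPM against 349 CPM, and Sult2b1 98.6 CPM against 173 CPM. Cyp3a25 had 187 CPM against 355 CPM, a ratio of 0.53. Gstm5 (19.7 and 63.7 CPM), Gstp1 (98.6 and 333 CPM) and Gstk1 (49.9 and 182 CPM) had ratios between 0.27 and 0.31. Of the replicates, 4 had at least 10 such wells. In whole organoid replicates 1 and 2 Gsta1 had 5090.2 and 3605 CPM in these wells, against 617 and 446 CPM in YFP plates 1 and 2, far apart. Gstp1 had 85.8 and 146 CPM against 308 and 423 CPM, in the opposite order, and Cyp3a25 overlapped, with 167 and 289 CPM against 340.4 and 235 CPM.

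**Figure D4:**
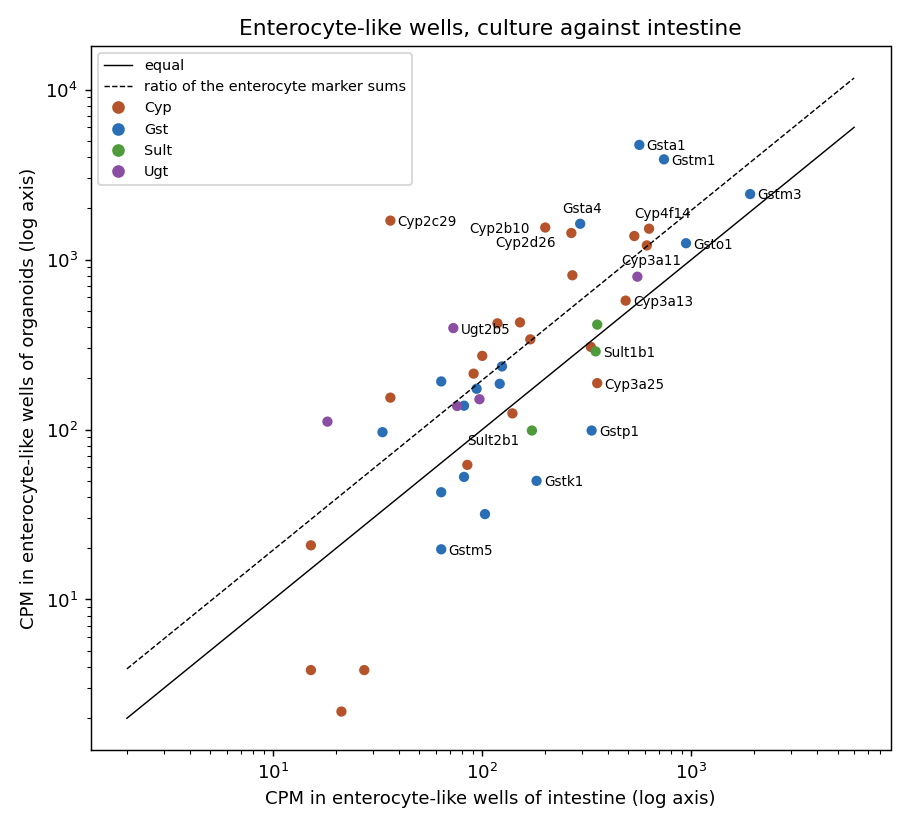
Level of 47 members in ex vivo enterocyte-like wells (x axis, CPM, log scale) and organoid enterocyte-like wells (y axis, CPM, log scale), coloured by family; the solid line marks equal levels and the dashed line the ratio of the summed enterocyte markers, 1.95. Cyp2c29 lies farthest above the lines, and Gstm5, Gstp1, Gstk1 and Cyp3a25 lie below both.

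Among the ranked classes, a few members peaked outside the enterocyte-like one. Gstt1 had 2814 CPM in organoid enteroendocrine-like wells, against 191.8 CPM in enterocyte-like and 125.7 CPM in stem-like wells, and was counted in 81.9% of these 72 wells. Its level was 1585 CPM in the 15 such wells of whole organoid replicate 1 and 3396 CPM in the 49 of Reg4-positive replicate 2. Gstk1 had 517 CPM in enteroendocrine-like wells and 49.9 CPM in enterocyte-like wells, and Cyp4b1 had 468 and 154 CPM. In ex vivo wells Gstt1 and Cyp4b1 were likewise highest in the enteroendocrine-like class, at 213 and 166 CPM in 18 wells. There Gstk1 was higher in enterocyte-like wells (182 CPM) than in enteroendocrine-like wells (145 CPM). Enteroendocrine markers summed to 96951 CPM in the organoid class and 20613 CPM in the ex vivo class. In Reg4-positive replicate 2 Gstt1 was counted in 61 of 81 wells, and the richest well held 7.38% of its counts. In stem-like organoid wells 6 members peaked: Gstm5, Gstt2, Cyp39a1, Cyp27a1, Cyp2c70 and Cyp4f15.

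Genes that work with these families, 59 chosen as sensors, electron donors and other oxidising enzymes, conjugation partners and export pumps, of which 58 were in the tables, moved in the same comparisons. In whole organoids against YFP plates 35 of 54 tested were higher and 2 lower, beside 13.4% and 9.45% of all genes, with a median log2 fold change of 1.06. Among electron donors and other oxidising or hydrolysing enzymes 16 of 23 were higher and 2 lower. Por, the electron donor of the microsomal P450s, had 422 and 334 CPM in whole organoids and 50.2, 63.7, 55.6, 48.2 and 38.8 in YFP plates (log2 difference 2.87 ± 0.20, edgeR adjusted p = 3.8e-07). Ephx1, the microsomal epoxide hydrolase, had 509.6 and 314 CPM against 43.2, 43.8, 45.5, 22.2 and 32.0 CPM (log2 difference 3.41 ± 0.23, edgeR adjusted p = 3.7e-07). Ephx2, the soluble epoxide hydrolase, went the other way, with 5.12 and 4.58 CPM against 109, 106, 101, 37.0 and 60.7 CPM (log2 difference -4.10 ± 0.45, edgeR adjusted p = 2.8e-05).

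Of the conjugation partners and cofactor enzymes 11 of 15 were higher in whole organoids, among them Papss2, which makes the sulfate donor (log2 difference 3.06 ± 0.47). Of the export pumps 4 of 5 were higher, including Abcc2, a pump of glutathione and glucuronide conjugates (log2 difference 2.57 ± 0.29). Of the sensors and their partners 4 of 11 were higher, including Nfe2l2 (log2 difference 1.39 ± 0.19, edgeR adjusted p = 1.3e-04) and Nr1i3 (log2 difference 1.93 ± 0.57, edgeR adjusted p = 0.027). Ahr, Nr1i2 and Hnf4a did not pass. Between Lgr5-positive organoids and Lgr5-EGFP plates 4 of 54 partner genes were higher and none lower, beside 0.762% and 0.677% of all genes. They were Adh1, Ces2e, Ces2g and Ephx1, the last by 2.06 ± 0.40 on the log2 scale (edgeR adjusted p = 0.019). In YFP progeny against Lgr5-EGFP cells 29 of 52 were higher and 2 lower, beside 14.7% and 11.0% of all genes. In Reg4-positive organoids 18 of 54 were lower than in whole organoids and 1 higher, beside 4.07% and 2.39% of all genes. In Lgr5-positive organoids 20 of 54 were lower and none higher, beside 2.97% and 0.656%.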

How the data were processed

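Single mouse intestinal cells were sequenced by CEL-seq in 12 replicates. The 35 samples in the labels also include further lanes of the same plates, a pool-and-split control and a control library. The 2 controls are not among the 12 replicates. The deposited values are estimated counts, which the authors made by counting different molecular barcodes of 4 bases for each gene in a well. This was read from the values: 3897295 of 3897321 nonzero values became whole numbers (tolerance 1e-06) when a correction for 256 possible barcodes was inverted, and the other 26 stood at the largest value, 1597.01. Correction is steep for abundant transcripts. Per the submitters' processing notes, BWA 0.6.2-r126 and mm10 (GRCm38) were used. Other settings of the authors' counting were not given in the sources used here. Per the labels, 2 tables of 96 wells each (192 columns) matched no sample and were not used. Of the Reg4-positive samples, the tables hold 1 plate of replicate 1 and 2 of replicate 2, fewer than the labels list.

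Counts were rounded (by at most 0.495), the 92 spike-in rows were left out, and wells with at least 1500 gene counts were summed per replicate. Tests used edgeR 4.0.16 in R 4.3.3 (quasi-likelihood F-test, TMM, filterByExpr, Benjamini-Hochberg over all genes tested, false discovery rate 0.05). The comparisons between culture and intestine were fitted with all 5 groups, those within culture with 3 and that within intestine with 2. CPM were computed on TMM-scaled totals. A fold against a group at 0 uses 3 counts over the group, with the floor on the same total as the level, taking whichever of the summed counts or the mean CPM gives the smaller ratio. Intervals of this kind cover counting error only. The test was checked on simulated data with 200 genes changed by 3 on the log2 scale: it called 200 of these in whole organoids against YFP plates (10632 genes, 10 others called), 197 in Lgr5-positive organoids against Lgr5-EGFP plates (10632 genes, 6 others), 200 in YFP against Lgr5-EGFP plates (9065 genes, 7 others), and 200 and 197 in the Reg4-positive and Lgr5-positive comparisons with whole organoids (10522 genes, 11 and 9 others). In the simulation every gene had the same fixed spread, which was not estimated from these data. The changed genes were drawn from those above the median level. The check therefore does not give the power of the test in these data. Members without a value in a comparison did not pass filterByExpr: 7 of 61 in both culture against intestine comparisons, 16 in progeny against stem cells and 6 within culture.

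Clusters were built without the members from 2000 variable genes, 20 principal components and 10 neighbours at resolution 1. A class name needed at least 3 markers raised at least 2-fold in at least 25% of wells, with a pseudocount of 1. It also needed more of its markers among the 10 leading genes of the cluster than any other class had. Organoid cluster 4 (66 wells, 49 of them from Reg4-positive replicate 1) had 9 Paneth and 7 goblet markers raised. It stayed unnamed because 5 of each were among its leading genes. No doublet caller was run. Cells were sorted singly into wells.

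Named genes were the 15 members with the highest mean level, up to 6 called members per comparison and direction with the largest change among genes whose higher group reached 20 CPM, the most abundant member of each subfamily of at least 10 CPM, and partner genes that were abundant or called. Part of them is given with values. The members and the lists of partner and marker genes were chosen with earlier results of these data known. Alternatives without TMM scaling, and without YFP plates 4 and 5 together, were added after seeing the data. GENCODE M21 gave coordinates for 60 of 61 members and RefSeq gave 54 promoters. In 50-base windows over the last 500 bases, 22 members share 3′ sequence with another gene of the 4 families, most of all Ugt1a1 (100% of windows), Gstp1, Cyp2c68 (51.2%) and Gstp2. Reads of such pairs could have been split.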

Additional observations from a re-analysis of the deposited data

Results flagged for a closer look

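In 37 groups of 5 YFP plates, 1 per named member, the highest or lowest plate was compared with the other 4, and 3 groups had a plate beyond Dixon's limit. Chance gives about 1 in 20. Cyp2e1 was at 37.0 CPM in YFP plate 4, against 13.5 to 16.7 CPM in the other plates. Gstm1 was at 96.3 CPM in the same plate, against 222 to 263 CPM in the others. Cyp2c38 was at 2.65 CPM in YFP plate 2 and at 0 in the others. Plate 4 had the fewest kept wells (35) and the fewest counts, and its enterocyte marker sum of 1541 CPM was the lowest of the YFP plates. The part of these in its values was not tested.

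The culture effect differed between unsorted and Lgr5-sorted cells for 4 of the 54 members tested, in edgeR's test of the interaction with all 12 replicates. Of all genes, 4.39% were called in this test, and the Lgr5-positive organoids entered it with 1 replicate. The members named above for which the interaction could not be estimated, Cyp2b10 and Cyp2c29 among them, could not pass. The log2 difference was 4.66 for Gsta3 (edgeR adjusted p = 0.0071), 3.29 for Cyp4f14 (edgeR adjusted p = 0.028), 1.78 for Cyp2j6 (edgeR adjusted p = 0.046) and -1.44 for Gstm5 (edgeR adjusted p = 0.022). Gstm5 was lower in both whole organoid replicates than in each of the 5 YFP plates, and higher in the 1 Lgr5-positive organoid replicate than in both Lgr5-EGFP plates. The latter difference was not called.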

How the results depend on the processing

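Over named members, 1886 values kept their direction and their side of the threshold, 145 lost a call, 101 gained one and 24, of 11 members that were called neither before nor after, changed sign. For whole organoids against YFP plates (39 called), 22 were called with wells thinned to 1500 counts, 33 in DESeq2, 49 with no filter on low counts (43 higher, 6 lower) and 34 without YFP plates 4 and 5, and leaving out 1 replicate gave 26 to 39. Without whole organoid replicate 1, 26 of the 39 calls were kept.

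For Lgr5-positive organoids against Lgr5-EGFP plates (2 called), 4 were called in DESeq2, 8 with no filter, 4 in wells of at least 3000 counts, 0 with thinned wells, 0 without TMM scaling, and leaving out 1 Lgr5-EGFP plate gave 0 to 0. Without TMM scaling 51 of all genes were higher and 92 lower, against 81 and 72. All genes gave 117 higher and 68 lower in DESeq2 and 183 and 289 with no filter. They gave 83 and 72 in wells of at least 3000 counts, and 7 and 10 with thinned wells. For YFP plates against Lgr5-EGFP plates (35 called), thinned wells gave 14 and leaving out 1 replicate 30 to 38, and without plates 4 and 5 there were 39. Thinning leaves fewer genes to test. With thinned wells all genes gave 346 higher and 220 lower in YFP against Lgr5-EGFP plates, and 421 and 247 in whole organoids against YFP plates. In the latter comparison all genes gave 989 and 800 in DESeq2, 1706 and 1209 with no filter, and 961 and 754 without YFP plates 4 and 5.

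For Reg4-positive against whole organoids (28 called), 17 were called without the wells above 100000 counts, 38 with all 5 groups in the fit (3 higher, 35 lower), 42 with no filter (3 higher, 39 lower), 24 with thinned wells (2 higher, 22 lower), and leaving out 1 replicate gave 10 to 34 (4 higher and 30 lower without whole organoid replicate 1). For Lgr5-positive against whole organoids (24 called), 37 were called with no filter (1 higher, 36 lower), 10 with thinned wells, 13 without the wells above 100000 counts, 39 with all 5 groups in the fit (3 higher, 36 lower), and 31 to 35 when 1 whole organoid replicate was left out. Without TMM scaling 16 were called, and all genes split into 73 higher and 172 lower, against 69 and 313. Over all genes, the Reg4-positive comparison gave 842 higher and 1068 lower with all 5 groups in the fit. It gave 751 and 965 with no filter, 183 and 232 with thinned wells, and 224 and 248 without the wells above 100000 counts. The same settings gave 654 and 1084, 394 and 978, 18 and 74, and 22 and 121 in the Lgr5-positive comparison. The causes were not tested, beyond the smaller number of genes or samples.

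With the replicate number as a block, 28 members were called in whole organoids against YFP plates, 37 in YFP against Lgr5-EGFP plates and 19 in Reg4-positive against whole organoids. All genes gave 560 higher and 358 lower, 1391 and 931, and 144 and 274 in these fits. Same-numbered replicates share only a number: deviations correlated at -0.095 and -0.095 for the organoid pair, 0.112 and 0.045 for whole organoids and YFP plates, and -0.014 and -0.027 for the ex vivo pair. No paired analysis was possible for the 2 comparisons with Lgr5-positive organoids because that group has 1 replicate. Among the ranked named classes, enterocyte-like wells held the highest level of 49 members in organoids (48 to 50 under other clusterings or thinning) and of 42 ex vivo (39 to 42). With 287001 counts in the smallest replicate, levels of a few CPM rest on 1 or 2 counts, and Lgr5-positive values rest on 1 replicate matched by name.

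The sign changes were as follows, on the log2 scale. With thinned wells Cyp3a25 was at -0.006 in whole organoids against YFP plates, Gstp1 at 0.89 in Lgr5-positive organoids against Lgr5-EGFP plates, Cyp51 at -0.12 and Gstm5 at -0.0735 in YFP against Lgr5-EGFP plates, and Gstm2 at 0.0203 in Lgr5-positive against whole organoids. Without TMM scaling Gsto1 was at -0.11 and Sult1d1 at -0.15 in the Lgr5 pair, and Cyp39a1 at -0.17, Cyp51 at -0.22 and Gstm5 at -0.21 in YFP against Lgr5-EGFP plates. Without YFP plates 4 and 5 Cyp51 was at -0.04. With no filter Sult1d1 was at -0.0101 in the Lgr5 pair and Gstz1 at -0.0325 in Reg4-positive against whole organoids, and with the replicate block Gstz1 was at -0.0179. Leaving out 1 replicate gave -0.34 to 0.92 for Cyp4v3 and -0.0703 to 0.41 for Gsto1 in whole organoids against YFP plates. In the Lgr5 pair it gave -0.33 to 0.13 for Cyp39a1, -0.0302 to 0.21 for Gsto1 and -0.0347 to 0.13 for Sult1d1. In Reg4-positive against whole organoids it gave -0.27 to 1.67 for Cyp4b1 and -0.33 to 0.24 for Gstz1, and in Lgr5-positive against whole organoids -0.0071 to 0.11 for Gstz1.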

Other observations

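Summed over subfamilies, the make-up of the families differed between groups. The 8 Cyp2c genes summed to 2262 ± 989 CPM (SD, n = 2) in whole organoids, 179 ± 82.6 (SD, n = 5) in YFP plates and 23.1 ± 5.67 (SD, n = 2) in Lgr5-EGFP plates. The 3 Cyp3a genes summed to 978 ± 269, 268 ± 154 and 2.38 ± 1.54 CPM, so that the Cyp3a mean was above the Cyp2c mean in YFP plates, within the spread of the plates, and below it in whole organoids. The 4 Gsta genes summed to 3674 ± 1999 CPM in whole organoids, 120 ± 60.8 in YFP plates and 34.1 ± 2.86 in Lgr5-EGFP plates, and the 7 Gstm genes to 4200 ± 2157, 820 ± 224 and 272 ± 5.22 CPM. The Gsta sum thus lay close to the Gstm sum in whole organoids and well below it in both intestinal groups. These sums were not tested.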
